A study of Mus musculus with 80 samples.

Results

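The cytosolic ribosome is built from a small subunit, which reads the mRNA, and a large subunit, which forms the peptide bond. Genes named Rps encode proteins of the small subunit and genes named Rpl encode proteins of the large subunit. They are transcribed in every growing cell, mostly from compact genes with short exons, and over evolution many of their mRNAs were copied back into the genome as intronless pseudogenes. This account describes where intervals of RXR ChIP-Seq lay over these genes in mouse liver. RXR (retinoid X receptor) is the nuclear receptor that partners PPARγ on DNA, and pioglitazone (Pio) is a PPARγ agonist drug.

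The members were all protein-coding genes of the GENCODE M21 annotation of mm10 with a symbol of Rpl or Rps followed by a number, plus Rplp0, Rplp1, Rplp2 and Rpsa, with the Rps6k kinase genes left out. The rule gave 92 genes of 21938 protein-coding genes, 57 named for the large and 35 for the small subunit, on 20 chromosomes. Of these, 77 were canonical ribosomal protein genes, and the other 15 were tissue paralogues, retrocopies annotated as protein-coding and a binding protein (Rps19bp1). The median gene spanned 3226.5 bp with 1701.5 bp of exons.

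All livers came from male mice aged 5 months, fed control diet or high-fat diet (HFD), each with or without Pio, for 12 weeks. Wildtype (WT) mice were C57BL6/J. Knockout (KO) mice carried PPARγ-loxP alleles and an Alb-Cre transgene, so the deletion was driven by the albumin promoter in hepatocytes and other liver cells keep the gene. Each of the 8 groups (Control, Pio, HFD and HFD-Pio in either genotype) had 5 ChIP libraries, each called against the input of the same number. The libraries of 3 KO groups (Pio, HFD and HFD-Pio) name RXR in their titles, but their antibody entry reads not applicable, as for the inputs. An interval over Pparg itself was listed in 2 of 5 WT Control, 4 of 5 WT Pio, 3 of 5 WT HFD-Pio and 1 of 5 KO Pio libraries and in none of the other groups, and such an interval is no check of the deletion. Fold enrichment is the pileup of tags at the summit of an interval divided by the local background, and a gene's value in a library is the highest among the intervals that overlapped it by at least 1 bp.

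Libraries differed in ways that touch every result. WT libraries kept 2035170 to 4256749 tags and KO libraries 627698 to 1057899, and the deposited lists used a cutoff on p for WT and on q for KO, so genotype, depth and cutoff cannot be told apart. The fragment length estimated by the peak caller was 45 to 48 bp, shorter than the 49-bp tag, in WT Pio replicates 2, 3 and 5 and in WT HFD-Pio replicates 1, 4 and 5, and it was 119 bp or more in the other libraries. These 6 libraries listed 11132 to 33705 intervals, the other 4 Pio-treated WT libraries 1905 to 6115, the untreated WT libraries 579 to 12919 and the KO libraries 7630 to 30437.

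Short stretches from the middle of the coding sequence are shown for genes with contrasting patterns, whether or not an interval lay over them, each 30 bases on the coding strand, taken from RefSeq's GRCm38.p6 assembly. Rps3 and Rpl8 were listed in all 20 KO libraries, whereas Rps27a, Rps6, Rps27 and its single-exon copy Rps27rt were listed in none of them but in 7 to 10 of the 10 Pio-treated WT libraries. Rps13 was listed nowhere. Capitals mark the run of 26 bases that Rps27 and Rps27rt share.
Rps3: ggcctgctatggtgtgcttcggttcattat
Rpl8: gcaagctggcccgagcctccgggaactacg
Rps27a: cggggtggtgctaagaaaaggaagaagaag
Rps6: tattcctggactgacagacactactgtgcc
Rps27: GATGCTATAAAATCACCACGGTCTTTagcc
Rps27rt: ccagGATGCTATAAAATCACCACGGTCTTT
Rps13: cttgagaatcctcaagtccaaaggccttgc
The stretches lie at chr7:99480034-99480063 in exon 5 of 7 of Rps3 (minus strand), chr15:76904908-76904937 in exon 4 of 6 of Rpl8 (plus strand), chr11:29546363-29546392 in exon 4 of 5 of Rps27a (minus strand), chr4:86855974-86856003 in exon 4 of 5 of Rps6 (minus strand), chr3:90213015-90213044 in exon 3 of 4 of Rps27 (minus strand), chr9:114982567-114982596 in exon 1 of 1 of Rps27rt (minus strand) and chr7:116333008-116333037 in exon 4 of 6 of Rps13 (minus strand). The 30 bases of Rps3 and Rpl8 had 0 further exact copies in the genome. Those of Rps27a had 2, those of Rps6, Rps27 and Rps27rt had 3 each, and those of Rps13 had 5.

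In untreated WT livers almost no ribosomal protein gene carried an interval. The 5 Control libraries listed 0, 0, 1, 0 and 1 of the 92 genes, and each of the 5 HFD libraries listed 0. The single genes were Rps29 in replicate 3 (fold enrichment 3.66) and Rps3 in replicate 5 (3.55); Rps29 is a member chosen for naming after its value was seen. The list of 12919 intervals of Control replicate 2, which touched 13.9% of all protein-coding genes, held none of the members.

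In Pio-treated WT livers most members carried one. The 5 WT Pio libraries listed 72, 70, 80, 24 and 69 members, a mean of 63.0 ± 22.2 (SD, n = 5). The 5 WT HFD-Pio libraries listed 77, 18, 26, 79 and 63, a mean of 52.6 ± 28.7 (SD, n = 5). Every treated library lay above every untreated one. The lowest 3 values belonged to libraries with a long fragment estimate, and the remaining library of that kind, WT Pio replicate 1, listed 72. Among all protein-coding genes, 3.71% to 32.9% were listed in treated and 0.962% to 13.9% in untreated WT libraries.

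**Figure D1:**
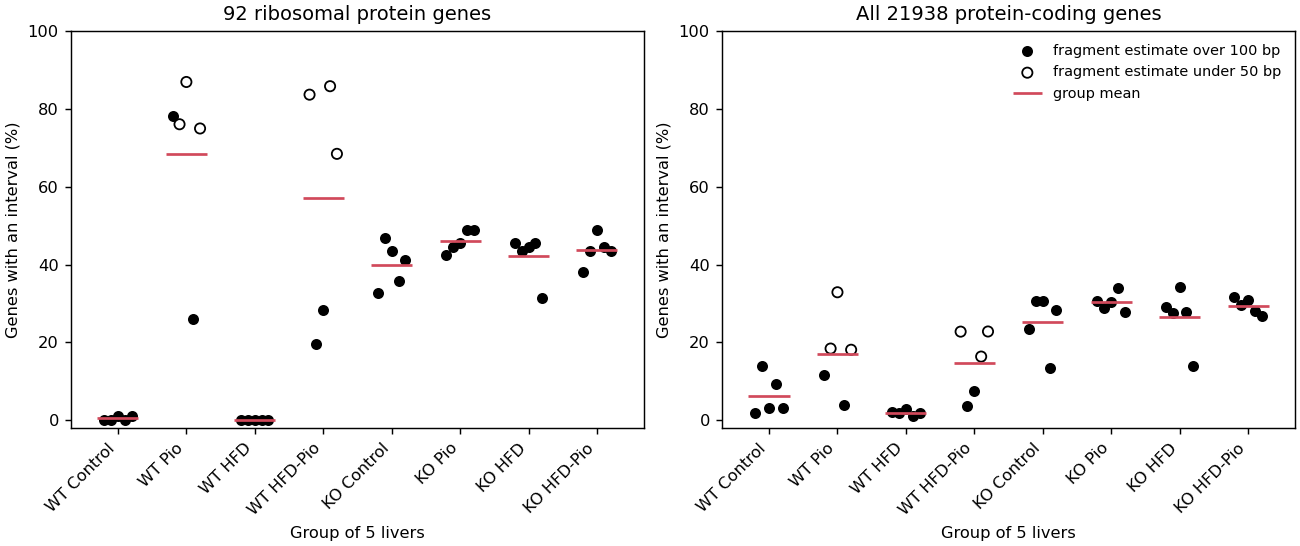
Share of ribosomal protein genes (left) and of all protein-coding genes (right) with an interval, in percent, in each of 40 libraries, with points in order of replicate number, open points for the 6 libraries with a fragment estimate under 50 bp and bars at the group mean of 5 livers. Treated WT libraries span 19.6% to 87.0% on the left and untreated WT libraries 0% to 1.09%, while KO libraries stay between 31.5% and 48.9%.

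On the control diet, 68 of the 92 members (73.9%) were listed in at least 3 of 5 WT Pio libraries and in 0 of 5 WT Control libraries, against 7.5% of all protein-coding genes. On the HFD, 62 members (67.4%) were gained in the same sense in WT HFD-Pio livers, against 7.67% of all protein-coding genes. No member was lost in either comparison. With 5 libraries against 5, the smallest two-sided p of Fisher's exact test is 0.00794, which cannot pass adjustment over all genes. On the control diet, 65 of 85 members tested were listed more often after Pio at an unadjusted p below 0.05, beside 1125 of all 10561 genes tested. On the HFD these were 33 of 80 members and 616 of 8769 genes. The HFD count rested on single libraries: it was 33 without HFD-Pio replicate 1, and likewise without replicate 4 or replicate 5.

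With both diets pooled, 10 treated against 10 untreated WT livers, 58 of the 85 members tested were listed more often after Pio (Fisher's exact test, Benjamini-Hochberg adjusted p below 0.05), against 6.97% of all 12347 genes tested. None was listed less often, but untreated WT libraries listed only 2 members, so a lower count could hardly occur. Of the 7 members listed in all 10 treated libraries, Rpl8, Rpl13a, Rps18, Rpl36al, Rps27rt and Rpl10-ps3 were in 0 untreated ones (adjusted p = 0.00163) and Rps3 in 1 (adjusted p = 0.00634). Rpl10-ps3, a single-exon copy of Rpl10, is a member named after its values were seen, to complete this count. An analysis chosen after the data were seen left out the 6 libraries of short fragment estimate. With 4 treated against 10 untreated livers the smallest p is 0.000999, and 0 genes passed adjustment (smallest adjusted p = 0.0878). All 72 members tested were listed in a larger share of the treated livers. That direction was nearly fixed, because members entered the test almost only through treated libraries. An unadjusted p lay below 0.05 in 22 of the 72 (30.6%) and in 3.86% of all genes tested. Cutting every list to the length of the shortest, 579 intervals, left 7 of 43 members called (16.3%), against 4.48% of the genes tested.

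The values of single members followed the same split of libraries. For Rps3, whose protein lines the entry of the mRNA channel, fold enrichment in WT Pio livers was 9.92, 13.96, 24.6, 1.89 and 20.6, and in WT HFD-Pio livers 22.4, 7.29, 3.59, 25.04 and 12.01. For Rpl8, a protein of the large subunit core near the peptidyl transferase centre, it was 6.03, 11.7, 31.0, 3.47 and 15.8, and then 20.6, 2.98, 4.22, 11.2 and 9.45. In both genes WT Pio replicate 4 and WT HFD-Pio replicates 2 and 3, all of long fragment estimate, held the lowest 3 of the 10 values.

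Rps18 had 7.90, 20.6, 27.03, 2.62 and 13.1 in WT Pio and 17.03, 2.98, 4.04, 33.3 and 17.4 in WT HFD-Pio livers. Rps27a, which encodes a fusion of ubiquitin to a small subunit protein, had 7.47, 13.98, 22.8 and 8.45 in 4 WT Pio libraries, no interval in replicate 4, and 11.8, 3.10, 3.52, 14.1 and 6.41 in WT HFD-Pio livers. Rps27rt had 11.6, 23.9, 15.8, 2.20 and 18.3, and then 15.5, 4.97, 6.89, 20.9 and 5.43. The range of the retrocopy overlapped those of the intron-bearing genes. The stalk proteins, which recruit translation factors to the large subunit, were listed in 8 (Rplp0), 7 (Rplp1) and 7 (Rplp2) of 10 treated libraries, with a mean fold enrichment of 15.1 ± 8.05 (SD, n = 8), 11.1 ± 4.75 (SD, n = 7) and 5.22 ± 1.97 (SD, n = 7) where listed. Rps6, the substrate of S6 kinase, was listed in 7, and Rpsa, the laminin receptor precursor, in 6, short of the threshold.

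A few members stayed without intervals in treated WT livers. Rpl7a, Rpl39, Rps13, Rps28 and Rpl36-ps4 were listed in 0 of 10 libraries, as were the members Rpl21 and Rpl38, named after their values were seen. Rpl41, the shortest ribosomal protein, was listed in 2 and Rps2 in 4. Of the 92 genes, 71 were listed in at least 5 treated WT libraries (77.2%, against 12.8% of all protein-coding genes). In at least 8 libraries 35 were listed (38.0%, against 3.68% of all protein-coding genes).

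**Figure D2:**
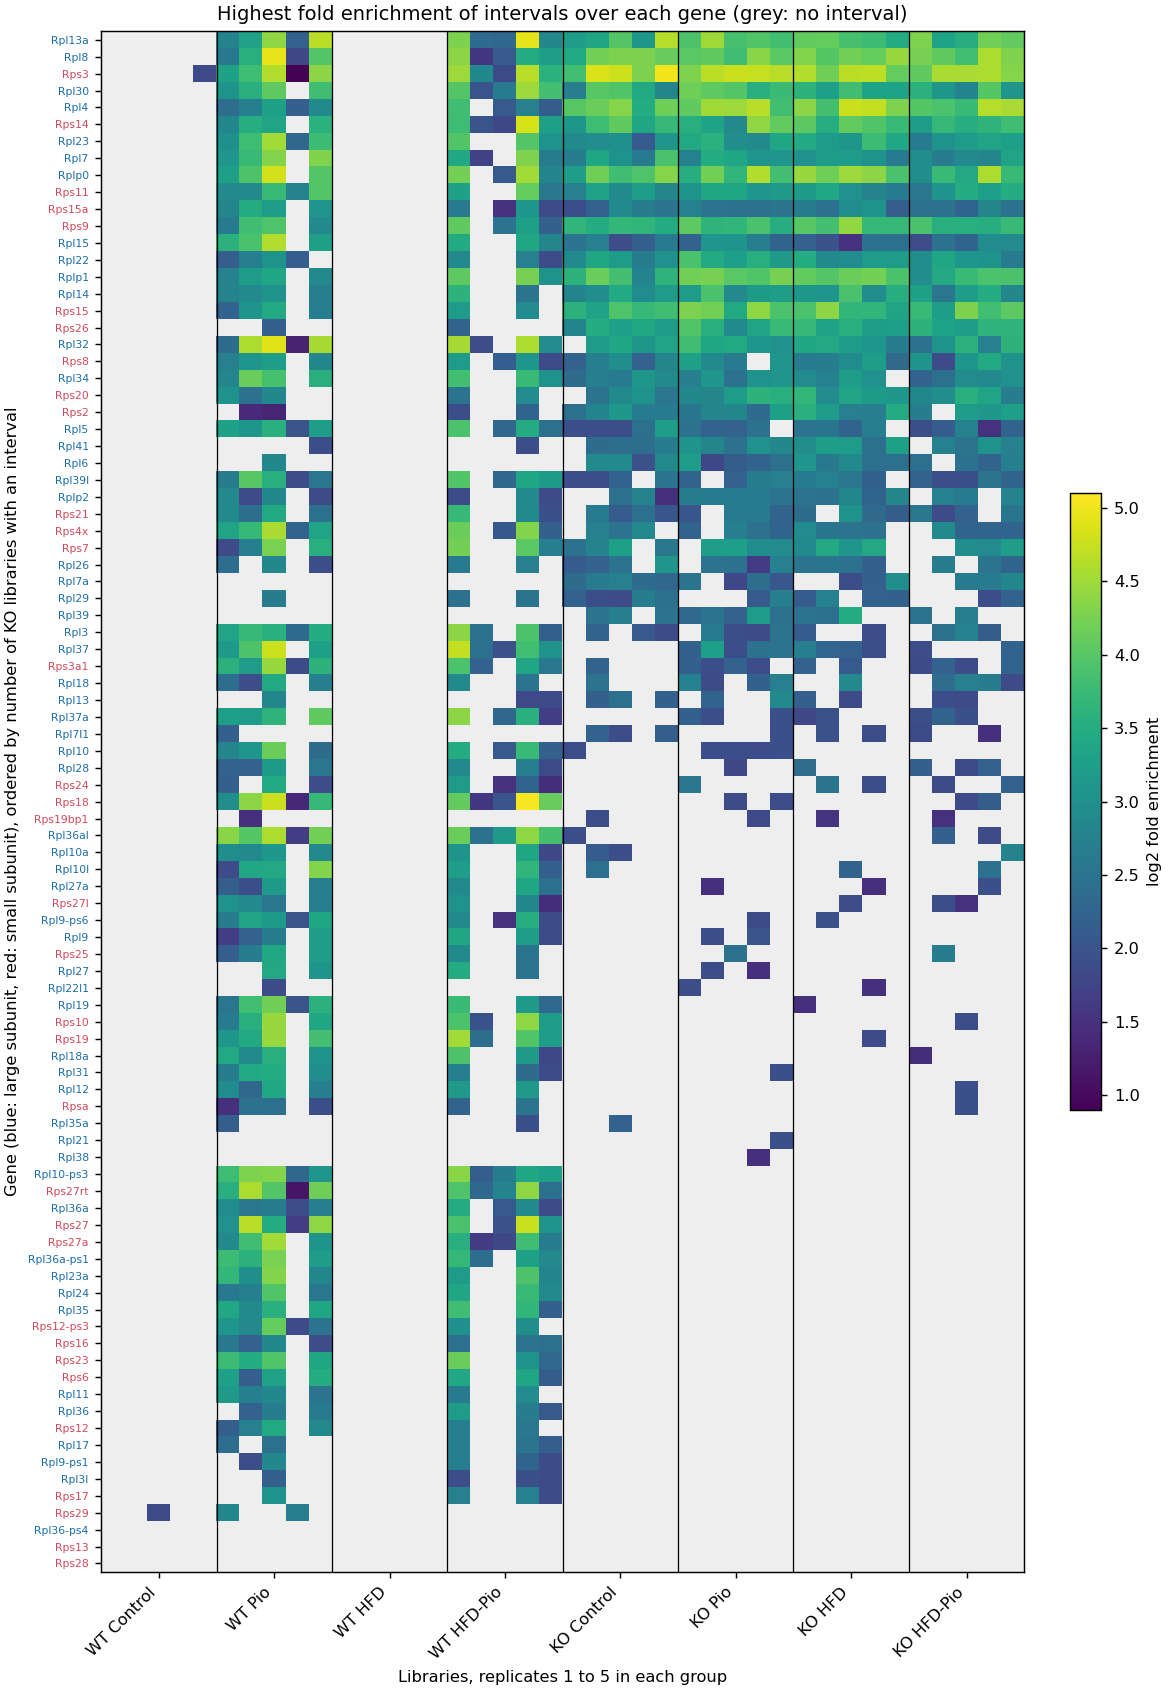
Highest fold enrichment (log2) of the intervals over each of the ribosomal protein genes but 1 (rows, blue names for the large and red for the small subunit) in 40 libraries (columns, 5 per group), ordered by the number of KO libraries with an interval, with grey for no interval. The upper rows are filled in 16 to 20 of the 20 KO libraries and the lowest 24 rows in none, whereas Pio-treated WT libraries fill most rows at either end.

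In KO livers 19 of the 92 genes carried an interval in all 20 libraries and 24 in none. The libraries listed 30, 43, 40, 33 and 38 members in KO Control, 39, 41, 42, 45 and 45 in KO Pio, 42, 40, 41, 42 and 29 in KO HFD, and 35, 40, 45, 41 and 40 in KO HFD-Pio. The group means were 36.8 ± 5.26, 42.4 ± 2.61, 38.8 ± 5.54 and 40.2 ± 3.56 (SD, n = 5 each), and the ranges of the groups overlapped. Library by library 13.4% to 34.2% of all protein-coding genes were listed. Of the members, 30 were listed in 16 to 20 of the 20 KO libraries, 16 in 5 to 15, 22 in 1 to 4 and 24 in none. Over all protein-coding genes, 17.8% were listed in at least 16 KO libraries, against 32.6% of members, and 42.3% in none, against 26.1% of members.

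In KO livers the fold enrichment of Rps3 ranged from 14.2 to 32.4 with a median of 24.2 over 20 libraries. Rpl4, a large subunit protein that lines the exit tunnel, ranged from 11.3 to 27.2 with a median of 18.7. The ranges of these genes overlapped.

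Rpl8 ranged from 10.96 to 24.04 with a median of 18.1, Rplp0 from 7.90 to 24.5 with a median of 15.2, and Rpl13a from 8.72 to 24.9 with a median of 14.9. Rps15 and Rps9, both of the small subunit, averaged 14.7 ± 3.53 and 13.5 ± 2.43 (SD, n = 20 each). The members that were listed held high places in their libraries: their median lay at the 75.5th to 88.8th percentile of fold enrichment among listed genes in KO libraries and at the 55.1st to 91.9th in treated WT libraries.

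Pio had no detected effect on the members in KO livers. With both diets pooled, Fisher's exact test called 0 of 68 members tested, and 0% of the genes tested, after adjustment, with 1 member and 90 higher and 15 lower genes in all below an unadjusted 0.05. On the control diet 2 members (2.17%) were gained, against 0.811% of all protein-coding genes: Rpl37, from 0 of 5 KO Control to 5 of 5 KO Pio libraries, and Rpl37a, named because of the small count, from 0 to 3. On the HFD 0 members were gained, against 0.474% of all protein-coding genes. Fisher's test there gave 0 members below an unadjusted 0.05, and 35 higher and 9 lower genes of the 11337 tested. None was lost on either diet.

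HFD left the presence of intervals without a call in either genotype. Fisher's exact test on 10 against 10 livers called 0 of 85 members and 0% of the genes tested in WT. In KO it called 0 of 68 members and 0% of the genes tested. Below an unadjusted 0.05 lay 0 members in WT, and 0 higher and 19 lower genes of the 12347 tested. In KO these were 1 member, and 14 higher and 21 lower genes of the 12664 tested.

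Fold enrichment could be compared in KO for the 1850 genes listed in all 20 libraries, which included 19 members. The limma test, on log2 values centred on each library's median, called 0 of 19 members and 0% of genes for KO Pio against KO Control, 0 and 0% for KO HFD-Pio against KO HFD, 0 and 0% for KO HFD against KO Control, and 0 and 0% for KO HFD-Pio against KO Pio. Unadjusted p lay below 0.05 in 1, 2, 2 and 3 of the 19, and in 103, 79, 81 and 84 of the 1850 genes. The median log2 difference over the members was 0.13, -0.09, 0.13 and -0.05 in that order, and over all genes -6.73e-05, -0.04, 0.01 and -0.02. For Rps3 the log2 difference was -0.06 ± 0.15 (SE) on the control diet and 0.01 ± 0.15 (SE) on the HFD. Rplp1 came nearest to a difference between diets: its means were 12.8 ± 3.92 in KO Control, 17.6 ± 1.55 in KO Pio, 16.8 ± 1.55 in KO HFD and 12.4 ± 3.07 in KO HFD-Pio (SD, n = 5 each), and the difference of the 2 Pio effects was -0.85 ± 0.24 (SE) on the log2 scale with a limma adjusted p of 0.956.

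Between genotypes the direction depended on the gene and on Pio. Without Pio, 36 of 58 members tested were listed more often in KO than in WT livers, against 34.5% of the genes tested, and 0 less often, against 0.182% of the genes tested. Untreated WT libraries listed 0 to 1 members each, so the members tested entered almost only through KO libraries and their direction was nearly fixed. Counted with genes without an interval, 36 of the 92 members and 4362 of the 21938 protein-coding genes were listed more often in KO. With Pio, 5 of 89 members were listed more often in KO, against 22.4% of the genes tested, and 22 more often in WT, against 2.06% of the genes tested. Because depth and cutoff differed with genotype, these counts compare 2 sets of libraries. At equal list length and without Pio, 10 of 16 members tested were listed more often in KO, with the same limit. On the wider base these were 10 of the 92 members, beside 238 of the 21938 protein-coding genes. With Pio, 2 of 74 members were listed more often in KO (2.70%, against 14.4% of the genes tested). Less often were 22 of the 74 (29.7%, against 7.83%). Without the 6 WT libraries of short fragment estimate, 10 of 85 members were listed more often in KO with Pio (11.8%, against 30.3% of the genes tested) and 6 less often (7.06%, against 0.471%).

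The 5 members listed more often in KO after Pio were Rpl7a and Rpl39 (7 of 10 KO against 0 of 10 WT, Fisher adjusted p = 0.0165), Rpl41 (9 against 2, adjusted p = 0.0266), Rpl6 (9 against 1, adjusted p = 0.00723) and Rps26 (10 against 2, adjusted p = 0.00509). Rpl6 and Rps26 are members named after their values were seen, to complete the count. Rpl7a had no interval in any of the 20 WT libraries, while in KO Control livers its fold enrichment was 5.20, 6.24, 6.67, 5.23 and 4.90. Among the 22 listed more often in WT were Rps27rt (0 of 10 KO against 10 of 10 WT, Fisher adjusted p = 0.000218), Rps27, Rps27a and Rpl36a (0 against 9, adjusted p = 0.00119), Rpl36al (2 against 10, adjusted p = 0.00509), Rps6 (0 against 7, adjusted p = 0.0165) and Rps18 (4 against 10, adjusted p = 0.0443).

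Genes of both subunits were listed in every group with treated WT or KO livers. In WT Pio livers 66.3% ± 23.97 of large and 72.0% ± 24.6 of small subunit genes were listed, and in WT HFD-Pio livers 55.8% ± 32.3 and 59.4% ± 29.8 (SD, n = 5 each). In KO livers the shares were 41.1% ± 6.40 and 38.3% ± 5.19 in Control, 48.1% ± 4.90 and 42.9% ± 4.04 in Pio, 42.1% ± 7.02 and 42.3% ± 4.69 in HFD, and 42.8% ± 3.64 and 45.1% ± 6.82 in HFD-Pio (SD, n = 5 each). Taken within each library, the large minus small subunit difference was -5.68 ± 3.45 percentage points in WT Pio livers and below 0 in 5 of 5 libraries, and 5.21 ± 7.44 in KO Pio livers, where its sign varied (SD, n = 5 each). The sign also varied in WT HFD-Pio livers, below 0 in replicates 1, 2 and 3 and above 0 in replicates 4 and 5. These differences were not tested. Of the 30 members listed in 16 or more KO libraries, 18 were large and 12 small, and of the 24 listed in none, 12 and 12.

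Tissue paralogues and their ubiquitous partners did not always share their pattern. Rpl39l, the germ-cell paralogue, was listed in 9 of 10 treated WT and 17 of 20 KO libraries, and its X-linked parent Rpl39 in 0 and 13. Rpl3 was listed in 9 and 12, and Rpl3l, its paralogue of striated muscle, in 4 and 0. Rpl10 was listed in 8 and 5, and the testis retrogene Rpl10l in 7 and 3.

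Rpl22 was listed in 7 treated WT and 20 KO libraries, and Rpl22l1 in 1 and 2. Rps27 was listed in 9 and 0, and Rps27l, a p53-inducible paralogue, in 7 and 3. Rpl36a was listed in 9 and 0, and Rpl36al in 10 and 3. Rps4x, encoded on the X chromosome, was listed in 9 and 15. All 49-base coding words of Rpl10, Rps27 and Rpl36a recur elsewhere in the genome, so reads of these genes could have been placed at other copies and their counts are uncertain, whereas 0% of the words of Rpl39l and 1.45% of those of Rpl3l recur.

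The intervals lay on exons. In treated WT livers, 7.13% ± 4.12 (SD, n = 10) of the exonic and 0.751% ± 1.61 (SD, n = 10) of the intronic bases of the members were covered, against 0.2998% ± 0.1923 of exonic and 0.0313% ± 0.0156 of intronic bases over all protein-coding genes. One library held most of the intronic cover: WT Pio replicate 1 covered 5.23% of intronic bases and the other 4 WT Pio libraries at most 1.08%. In KO livers, 9.40% ± 1.34 (SD, n = 20) of exonic and 2.16% ± 0.371 (SD, n = 20) of intronic bases were covered, against 4.25% ± 1.16 and 0.0959% ± 0.0339 over all protein-coding genes.

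Within one transcript per gene, the coding sequence was covered most. In treated WT livers 22.8% ± 11.8 of coding bases, 2.58% ± 1.82 of 5′ UTR bases and 0.825% ± 0.572 of 3′ UTR bases lay under an interval (SD, n = 10). In KO livers the shares were 19.9% ± 1.79, 3.05% ± 0.999 and 9.29% ± 3.22 (SD, n = 20). The 250 bp before the start site overlapped an interval in 1 to 5 of the 92 members per treated WT library and in 0 to 2 per KO library. These counts and the coding and UTR shares were taken for the members only. They therefore cannot be set against other protein-coding genes.

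**Figure D3:**
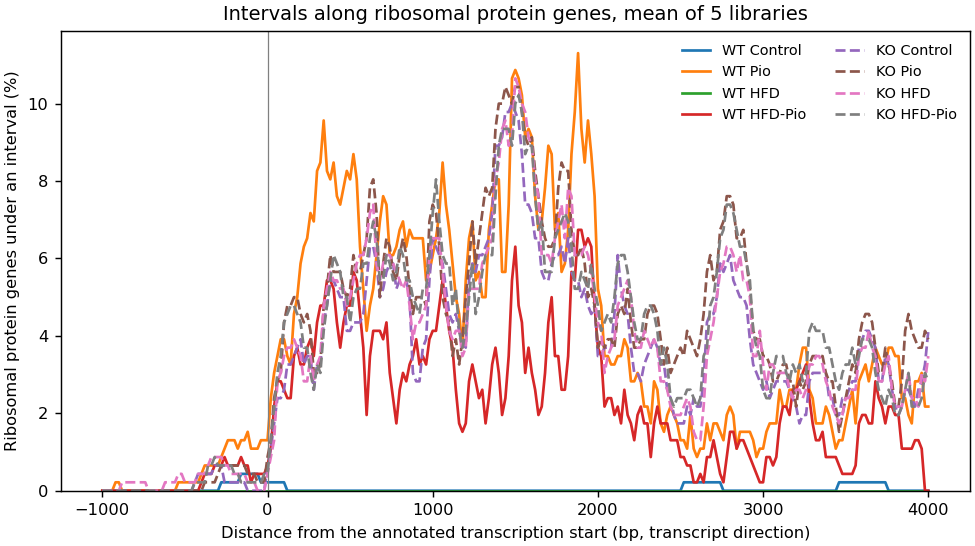
Share of 92 ribosomal protein genes under an interval, in percent, against distance from the annotated start site in bp of genome in the direction of transcription, as the mean of 5 libraries for each of 8 groups (solid lines WT, dashed lines KO). Cover is low before the start in all groups and higher after it in treated WT and in all KO groups.

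Ribosomal protein coding sequences differ in how much of them recurs elsewhere in the genome. Each member's spliced coding sequence was cut into all its 49-base words, the length of a tag, and a word counted as recurring when GRCm38 held an exact copy on either strand outside its own locus. The median member had 88.3% recurring words, and 31 of the 92 had 100%. In KO livers listed genes were the ones with fewer such words: the median was 63.3% for the 30 members in 16 to 20 KO libraries, 91.2% for those in 5 to 15, 89.6% for those in 1 to 4 and 100% for the 24 in none. Rpl8 (10.1%) and Rps3 (10.7%) stood at one end, and Rps27a, Rps6, Rps27 and Rps13 (100% each) at the other. There were exceptions on both sides, since Rpl3l (1.45%) was listed in no KO library and Rpl15, named here for its value, had 100% and was listed in 20.

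In treated WT livers the median was 83.5% for the 35 members in 8 to 10 libraries, 93.6% for the 36 in 5 to 7, 82.8% for the 14 in 1 to 4 and 100% for the 7 in none. Spearman's rho across the 92 genes, which share libraries and depth, was -0.51 with the number of KO libraries and -0.13 with the number of treated WT libraries; both are descriptions across genes, which are not independent replicates. The split also ran within genes. Among members with an interval, 33.7% ± 2.30 of words centred under an interval recurred elsewhere in KO libraries and 91.5% ± 3.32 of words not under one (SD, n = 20), and the ranges of 28.1% to 37.01% and 86.3% to 96.6% did not overlap. In treated WT libraries the values were 72.8% ± 4.14 and 70.0% ± 3.36 (SD, n = 10), with overlapping ranges. Of 289 pseudogenes named after a ribosomal protein gene, 39 to 177 carried an interval in treated WT, 0 to 1 in untreated WT and 17 to 41 in KO libraries. These pseudogene counts were taken for this set only and cannot be set against other pseudogenes. The part of alignment in these differences was not tested.

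**Figure D4:**
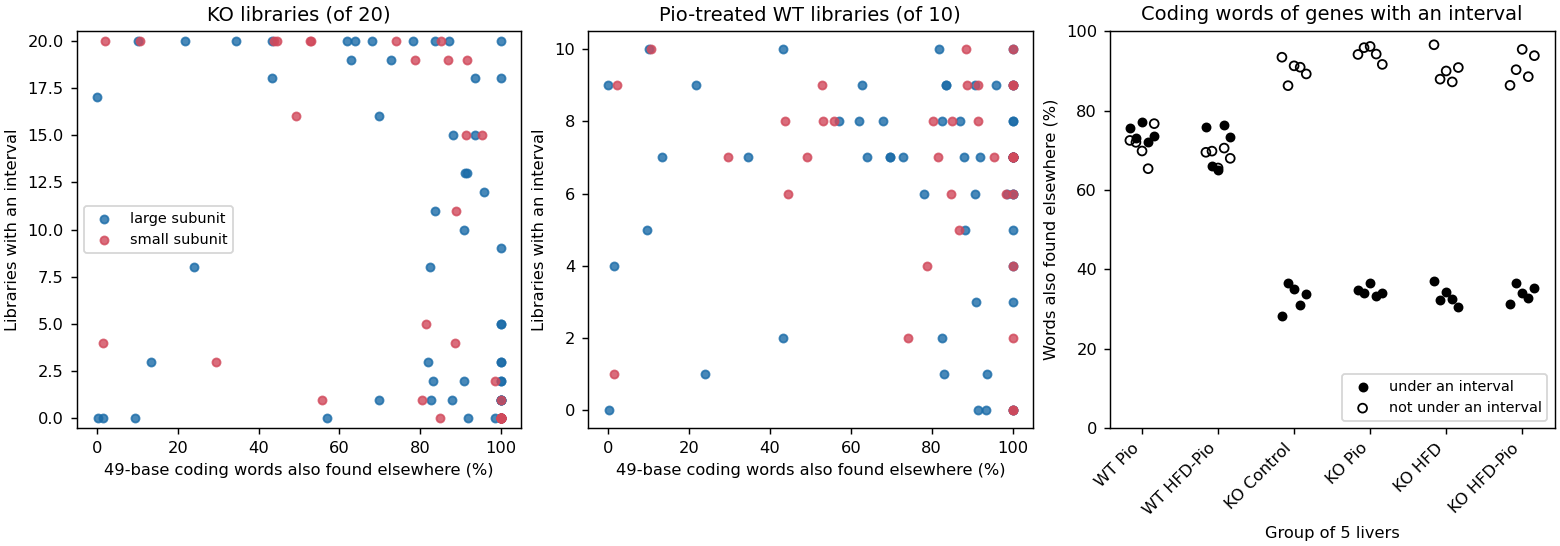
Number of libraries with an interval against the share of 49-base coding words found elsewhere in the genome, in percent, for 92 genes in KO (left, of 20 libraries) and Pio-treated WT livers (middle, of 10), with the share of such words under (filled) and not under (open) an interval in each library of 6 groups (right). In KO libraries filled points lie at 28.1% to 37.01% and open points at 86.3% to 96.6%, whereas in treated WT libraries the points mix.

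RXR heterodimers with PPARγ bind a direct repeat of the hexamer AGGTCA with 1 base between the copies (AGGTCANAGGTCA). Within 100 bp centred on the strongest summit of each listed gene, on either strand, the repeat with at most 2 mismatches, the spacer not counted, was found in 0 of 89 members and in 1.06% of the windows of all 16046 listed genes. The hexamer itself, which the repeat contains, was found in 6.74% of member windows and 5.53% of all. Promoter sequences were at hand for 66 of the 92 members, so shares there leave out part of the set. The repeat, by the same rule, was found in 6.06% of these 66 and in 4.40% of all 27025 genes with a promoter sequence. The hexamer was found in 10.6% and 18.1%. None of these motif differences was tested.

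Other genes of the translation machinery gave the following counts for Pio in WT livers, 10 against 10, in the same Fisher's test. They are counts over all genes of a list, including genes without an interval, which were not tested. On that base, 861 of all 21938 protein-coding genes were called. Among ribosomal proteins whose symbols keep them out of the 92 members, Rack1, a scaffold on the small subunit, was called at 10 of 10 treated libraries, and Fau, a fusion of a ubiquitin-like protein to a small subunit protein, at 7 of 10. Translation factors were called in 19 of 35 (54.3%), including Eef1a1, the elongation factor that delivers tRNA, and Pabpc1, the poly(A) binding protein (10 of 10 each). Eef2, the translocase, was listed in 6 treated WT libraries and in 20 of 20 KO libraries at a mean fold enrichment of 31.7.

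Ribosome assembly factors were called in 3 of 20, which were Nop58, Nop10 and Npm1. Mitochondrial ribosomal proteins were called in 3 of 78 (3.85%), beside 861 of all 21938 protein-coding genes. Of the 78, 30 had no interval in any treated WT library. None of these lists held a gene listed less often after Pio.

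Markers of liver cells and of other tissues were counted per library as well. Over all protein-coding genes, 0.962% to 13.9% were listed in untreated WT, 3.71% to 32.9% in treated WT and 13.4% to 34.2% in KO libraries. Of 16 hepatocyte genes, 0 to 8 were listed in untreated WT, 0 to 2 in treated WT and 1 to 3 in KO libraries. The medians were 0, 0.5 and 1 in that order. Alb was listed in 1 untreated WT, 1 treated WT and 0 KO libraries, and Apoa2, Fgb, Fgg and Apoc3 in none of the 40. Ttr, on the same list, went the other way. It was listed in 1 untreated WT, 1 treated WT and 20 of 20 KO libraries, in KO at a mean fold enrichment of 20.5. Of 14 neural genes, 0 to 2, 1 to 7 and 9 to 12 were listed, of 10 intestinal genes 0 to 2, 0 to 7 and 0 to 2, of 7 smooth muscle genes 0 to 3, 2 to 5 and 2 to 6, and of 6 pancreatic genes 0, 0 to 2 and 0. In bulk tissue, fewer cells of a type and less signal per cell cannot be told apart, and the part of these genes in the results above was not tested.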

How the data were processed

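RXR ChIP-Seq libraries (40) and inputs (40) from mouse liver were aligned to mm10 with Novoalign, per the submitters' processing notes, and the authors called intervals with MACS2 for each library against its own input, at p of 0.001 in WT and q of 0.05 in KO, per the file headers. The deposited interval lists give fold enrichment (a ratio to local background), pileup (a signal that is never negative) and −log10 p and −log10 q values. The narrowPeak copies held the same intervals and were not used; the input libraries entered only through the calls. Antibody labels are as described above.

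Intervals were joined to GENCODE M21 genes (1 bp of overlap). Presence was tested by two-sided Fisher's exact test (scipy 1.17.1) with Benjamini-Hochberg adjustment over all genes tested, and log2 fold enrichment by limma 3.58.1 (R 4.3.3, trend). Both were tested on simulated data. The simulation for Fisher's test gave each unchanged gene the same rate in every library. It therefore does not cover the differences in list length between the libraries. Precision is limited by tags kept per library, and no interval does not mean no binding. The members and gene lists were chosen with earlier results of these data known. Genes were named from a fixed list, by the largest differences in libraries with an interval (4 per subunit and WT contrast), by the highest KO fold enrichment (4 per subunit), or for having no interval in any library. Each library is treated as 1 liver. The authors state that replicate livers were from separate animals, while the labels themselves do not tie libraries to animals. Fisher's test compares counts of libraries, and only the limma p-values use the spread between these samples. Replicate numbers are shared between groups but do not pair livers: across 1850 genes, deviations of same-numbered KO libraries from their group means correlated at -0.065 to 0.054 in 30 pairs. Alternatives covered exons only, summit position, q and fold enrichment minimums, equal list length, shared loci, stricter presence, gene filters, no centring, a replicate block and leaving out libraries. Some genes that the rules would name are not reported here.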

Additional observations from a re-analysis of the deposited data

Results flagged for a closer look

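Values below stood apart from the other 4 libraries of their group by Dixon's test at 95%, with a critical ratio of 0.71 for 5 libraries. Chance flags about 1 in 20 groups, and 5 of 48 sets of library values and 4 of 89 gene and group combinations were flagged. The 48 include sets of untreated WT groups with missing or constant values, which could not be flagged. No explanation was tested.

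WT Pio replicate 4 listed 24 ribosomal protein genes, the others 69 to 80, and 44 pseudogenes named after them, the others 141 to 177. In WT Pio replicate 1, 5.23% of the intronic bases of the members lay under an interval, against 0.0160% to 1.08% in the others, and 5 members had an interval before their start, against 2 in each of the others. KO HFD replicate 5 listed 29 members, the others 40 to 42.

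Among single genes, fold enrichment of Rpl13a was 22.6 in KO Pio replicate 2 (14.3 to 15.5 in the others) and that of Rpl39 was 9.28 in KO Pio replicate 4 (4.68 to 5.66 in the others). Fold enrichment of Rpl8 was 10.96 in KO Control replicate 1 (17.5 to 19.3 in the others) and that of Rps3 was 19.5 in KO Pio replicate 1 (25.2 to 27.2 in the others).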

How the results depend on the processing

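Of the planned recomputations of summary results, 627 stayed within the limits set for no change and 45 moved. None reversed a tested call, and the cause was not tested for any of them. With lists cut to equal length, members gained were 32 (WT Pio, from 68), 17 (WT HFD-Pio, from 62) and 1 (KO Pio, from 2), calls for Pio in WT were 7 (from 58), and members higher in KO were 10 without Pio (from 36) and 2 with Pio (from 5). WT HFD-Pio gains were 26 with −log10 q of at least 5, 36 with fold enrichment of at least 5 and 33 in at least 4 of 5 libraries. KO Pio gains were 1 in each of these settings and without intervals over other genes, and 1 member was lost with exons only. Calls for Pio in WT were 23 with −log10 q of at least 1.3, 33 with fold enrichment of at least 5 and 28 without intervals over other genes. Without the short fragment estimates, chosen after seeing the data, they were 0 with 4 treated against 10 untreated libraries, and with Pio 10 members were higher and 6 lower in KO (from 5 and 22).

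Large minus small subunit differences (percentage points) changed sign in KO Control (2.77 to -4.28 with −log10 q of at least 5, -3.19 with fold enrichment of at least 5, -4.72 at equal length) and KO Pio (5.21 to -2.54 with fold enrichment of at least 5). In KO HFD the difference of -0.18 was -4.42, -5.43 and -3.76 in those 3 settings, and in WT Pio -5.68 was -0.79 without intervals over other genes. Exonic minus intronic cover stayed positive: with −log10 q of at least 5 it was 4.70, 5.95, 5.48 and 5.59 in KO Control, Pio, HFD and HFD-Pio, with fold enrichment of at least 5 it was 5.05, 5.94, 5.56 and 5.51, and without intervals over other genes it was 6.92 in KO Pio and 6.59 in KO HFD-Pio.

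Leaving out 1 library gave gains of 64 to 69 (WT Pio), 33 to 62 (WT HFD-Pio), 1 to 4 (KO Pio) and 0 to 1 (KO HFD-Pio), losses of 0 to 1 (KO Pio), 58 to 67 calls for Pio in WT, 36 to 39 without Pio between genotypes, and 5 to 6 higher and 22 to 28 lower in KO with Pio. With replicate number as a block, limma called 0 members in each of the 4 KO contrasts, as without it. The numbers pair no livers. Lower depth in KO and a different cutoff limit every comparison between genotypes.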
